A study of Homo sapiens with 32 samples.

Results

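The CCT chaperonin, also called TRiC, is built from the products of 8 paralogous genes, TCP1, CCT2, CCT3, CCT4, CCT5, CCT6A, CCT7 and CCT8. These genes were chosen by name, 8 of 19970 protein-coding genes on chromosomes 1 to 22 and X. The summits of 4 ChIP-seq lists (ZNF143, SP1, NRF1 and YY1) within 1000 bp of their annotated 5′ ends were described. Each gene encodes a different subunit, in the order above the alpha, beta, gamma, delta, epsilon, zeta, eta and theta subunits. CCT4 and CCT7 both lie on chromosome 2, and the others lie on chromosomes 6 (TCP1), 12 (CCT2), 1 (CCT3), 5 (CCT5), 7 (CCT6A) and 21 (CCT8).

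CCT is a double ring in the cytosol that closes around an unfolded protein and uses ATP to help it fold. Actin and tubulin are its best-known substrates, and prefoldin hands unfolded chains to it. Each ring holds one copy of every subunit, so the complex needs all the subunits together. ZNF143, a zinc finger protein, SP1, which recognises GC boxes, NRF1, the nuclear respiratory factor, and YY1, also a zinc finger protein, are sequence-specific factors known at promoters of broadly expressed genes.

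Chromatin immunoprecipitation with sequencing recovers the DNA bound by a protein, and a summit is the position of highest signal in a called peak. The cells were 1 clone, HEK_CloneZD29, of the human embryonic kidney line HEK293T, in which ZNF143 carries an inducible degron tag with an HA epitope. The 32 samples formed 10 groups, since cells without treatment and cells kept for 30 minutes in dTAGV-1 at 50 nM, a molecule that sends the tagged protein for degradation, were each precipitated with SP1, NRF1, YY1 or HA antibodies or in a mock. A group held 4 samples for SP1, NRF1 or YY1, and 2 samples for HA or mock. All groups shared the tagged clone, so none had untagged ZNF143.

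The labels name the same SP1 list for both treatments, and likewise the same ZNF143 list. The labels do not state which samples the NRF1 and YY1 lists cover. Treated and untreated cells were therefore not compared, and a value has no replicate, no error and no test. The lists held 16165 (ZNF143), 126181 (SP1), 39180 (NRF1) and 106578 (YY1) summits on chromosomes 1 to 22 and X. Column 5 of each list holds a −log10 p-value or q-value, which is called the summit's score here. Scores rise with sequencing depth, which is unknown, and were compared within a list only. The rank percent places a summit by score among all summits of its list, so 1% lies near the top. The lists hold no RNA or protein levels, so expression of the subunits and markers of the cell line were not examined.

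A gene's 5′ end was taken in 2 ways from GENCODE 44 on hg38. The gene end is the outermost annotated start, and the MANE end is the start of the MANE Select transcript, the single reference transcript of the gene. The ends differed by 15 bp at CCT4, 33 bp at CCT2, 80 bp at CCT6A, 101 bp at TCP1, 149 bp at CCT8, 351 bp at CCT5 and 888 bp at CCT7. At CCT3 they lay 29581 bp apart. Offsets below are counted from the MANE end, negative upstream and positive downstream. The highest summit of each list was the same from both ends in every gene but CCT3. The full sets within 1000 bp also differed at TCP1, CCT5, CCT6A, CCT7 and CCT8. The nearest summit changed at CCT3, at CCT7 in every list, and at CCT5 and CCT6A for YY1.

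The stretches before the starts are shown because the summits fall on or beside them. They come from the hg38 reference, read 5′ to 3′ on the strand of the CCT gene, and lie between the gene ends of CCT gene and neighbour for TCP1, CCT4, CCT6A and CCT7. For CCT2 and CCT8 the 120 bp before the gene end are given, and for CCT3 the stretch from -210 to -20 of the MANE end. Capitals mark exact matches, on either strand, of the GC box GGGCGGG, the NRF1 motif GCGCANGCG and the CCAAT box CCAAT. The 31 bp between the gene ends of CCT5 and its neighbour are 31 A.
TCP1, chr6:159789704-159789811, minus strand: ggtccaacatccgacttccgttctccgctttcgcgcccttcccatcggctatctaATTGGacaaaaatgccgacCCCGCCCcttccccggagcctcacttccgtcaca
CCT2, chr12:69585306-69585425, plus strand: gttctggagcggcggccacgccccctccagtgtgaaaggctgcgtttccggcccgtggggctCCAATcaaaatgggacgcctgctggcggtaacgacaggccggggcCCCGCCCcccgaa
CCT3, chr1:156338312-156338502, minus strand: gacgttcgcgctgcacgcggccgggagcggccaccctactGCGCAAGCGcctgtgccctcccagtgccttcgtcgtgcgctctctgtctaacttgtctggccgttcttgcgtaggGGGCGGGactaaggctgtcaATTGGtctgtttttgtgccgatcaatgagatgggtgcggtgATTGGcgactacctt
CCT4, chr2:61888672-61888723, minus strand: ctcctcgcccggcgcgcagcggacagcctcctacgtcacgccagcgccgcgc
CCT6A, chr7:56051605-56051684, plus strand: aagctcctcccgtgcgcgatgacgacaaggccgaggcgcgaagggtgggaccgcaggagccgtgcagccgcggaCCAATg
CCT7, chr2:73233240-73233419, plus strand: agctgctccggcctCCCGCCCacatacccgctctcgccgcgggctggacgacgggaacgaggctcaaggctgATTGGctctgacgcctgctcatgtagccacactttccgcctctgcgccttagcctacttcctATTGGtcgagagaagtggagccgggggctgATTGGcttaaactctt
CCT8, chr21:29073798-29073917, minus strand: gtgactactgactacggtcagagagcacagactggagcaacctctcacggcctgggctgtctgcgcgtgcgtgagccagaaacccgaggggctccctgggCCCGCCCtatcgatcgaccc
GC content of the stretches ran from 59.3% at TCP1 to 78.8% at CCT4. The CCT3 stretch holds an NRF1 match, a GC box and a pair of CCAAT boxes, and the CCT4 stretch holds none of these motifs.

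Within 1000 bp of the MANE end, SP1, NRF1 and YY1 summits lay at 8 of 8 CCT genes each, and ZNF143 summits at 7 of 8. Over all 19970 genes the shares were 66.6% for SP1, 56.1% for NRF1, 65.4% for YY1 and 37.1% for ZNF143. All 4 lists were present at 7 of 8 CCT genes, against 34.8% of all genes. CCT2, the beta subunit gene, was the member without a ZNF143 summit. At the gene ends the counts were 8 (SP1), 7 (NRF1), 7 (YY1) and 6 (ZNF143), and 6 for all 4 lists. The shares of all genes there were 63.5%, 53.1%, 62.3%, 35.3% and 32.9%. The difference between the ends came from CCT3, whose gene end had a single SP1 summit with a score of 2.85 (rank 92.2%).

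**Figure D1:**
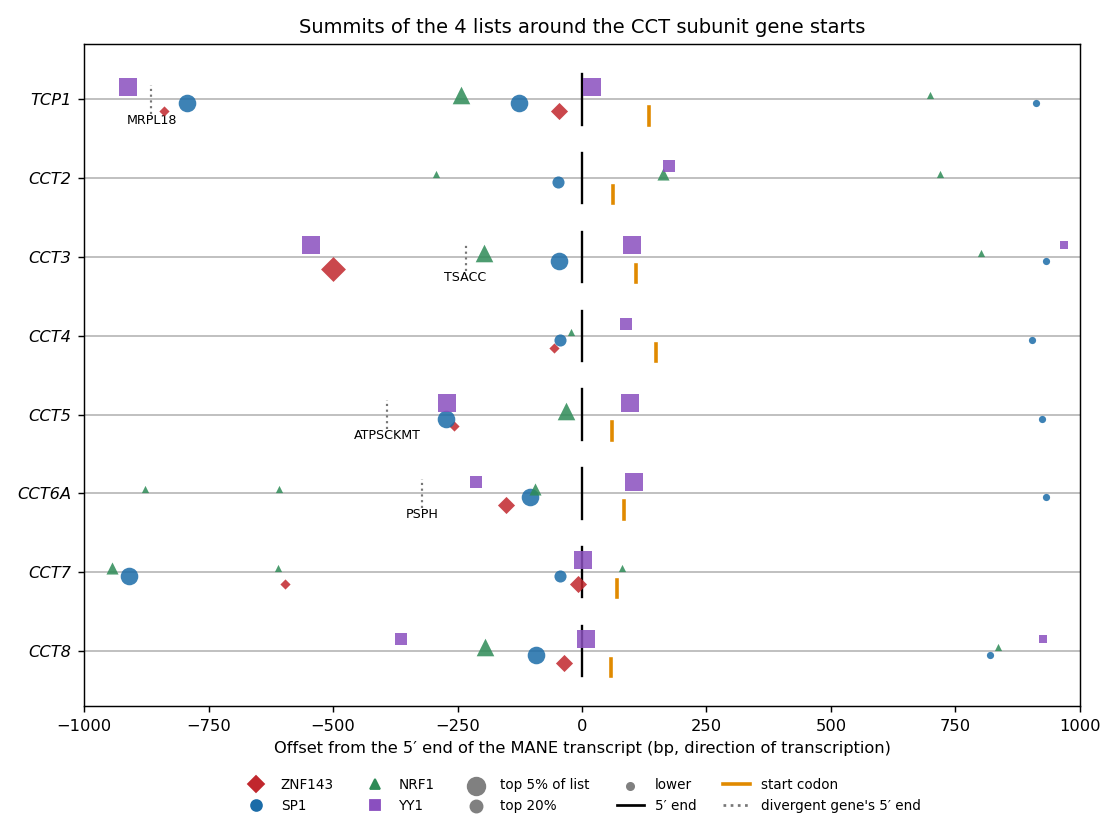
Summits of the ZNF143, SP1, NRF1 and YY1 lists within 1000 bp of the MANE end of each CCT gene; the horizontal axis is the offset in bp in the direction of transcription, larger markers rank higher in their list, and short marks show start codons and the MANE ends of divergent genes. Seen from the MANE end, the nearest SP1 summits lie to the left and the nearest YY1 summits to the right in 8 of 8 genes; from the gene ends this holds for SP1 in 6 of 8 and for YY1 in 5 of 7.

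The highest ZNF143 summit of a member differed widely in score between the subunit genes. CCT3 had the highest, with a score of 12294 at -501 bp (rank 302 of the list, 1.87%). This summit lay in an intron of TSACC, the divergent neighbour, and nearer to the start of TSACC than to that of CCT3. TCP1 followed with 3635 at -46 bp (7.10%), CCT8 with 2216 at -36 bp (8.99%), CCT7 with 1899 at -7 bp (9.56%) and CCT6A with 1022 at -153 bp (11.9%). CCT5 had a score of 9.83 at -258 bp, below the list's median of 13.0 (rank 58.0%). CCT4 had 2.11 at -57 bp, close to the list's lowest value of 2.00 (rank 98.3%). Ranks of 5 subunit genes thus ran from 1.87% to 11.9%, and CCT5 and CCT4 lay in the lower part of the list. The members' median rank was 9.56% over 7 genes, beside 38.4% over the 7410 genes with a ZNF143 summit. From the gene ends, where CCT3 drops out, the medians were 10.7% and 37.8%. There the members' median was 22.3% within 500 bp and 34.9% within 250 bp. Taking the summit nearest to the gene end also gave 34.9%, beside 40.1% over all genes.

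The sequence at these summits is shown because the ZNF143 motif was found at some and not at others. Capitals mark ACTACAACT at CCT3, a form of the ZNF143 upstream element ACTACAANT that was searched after the CCT3 sequence had been seen, and CATTGTGGG at CCT7, which is the core motif CCCANNATG on the other strand. TCP1 and CCT8, with the next highest scores after CCT3, hold neither.
CCT3, chr1:156338769-156338798, minus strand: cccggtaagACTACAACTcccacttcaccc
CCT7, chr2:73234292-73234321, plus strand: ttctattgcgcgaggCATTGTGGGttgctg
TCP1, chr6:159789634-159789663, minus strand: cccgccgtgccccgcggccgggccggggca
CCT8, chr21:29073670-29073699, minus strand: ggaagagcgtgaggcggccccacgctgctt
The CCT7 match runs from -1 to +7 bp, across the MANE end itself. Within 50 bp of the highest ZNF143 summit the core motif was present at 1 of 7 members (CCT7), the element ACTACANTT at 0 and the form ACTACAANT at 1 (CCT3). The same shares at the summits of all genes were not counted. In the promoter window from 250 bp before to 50 bp after the MANE end, the core motif lay in 1 of 8 members and in 4.41% of all genes. The 2 forms of the upstream element lay in 0 of 8 members, and in 1.62% (ACTACANTT) and 1.88% (ACTACAANT) of all genes.

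NRF1 split the genes into 4 with high and 4 with low scores. CCT5 had 11043 at -32 bp (rank 0.804%), CCT3 had 10356 at -197 bp (0.949%), TCP1 had 6024 at -243 bp (2.74%) and CCT8 had 5077 at -194 bp (3.34%). The next was CCT6A, with 61.2 at -95 bp (16.5%), then CCT7 with 45.0 at -944 bp (18.5%), CCT2 with 37.7 at +163 bp (19.8%) and CCT4 with 12.0 at -23 bp (32.5%). No member had a score between 61.2 and 5077. Of the high summits, that of TCP1 lay nearest to a start of MRPL18, a divergent neighbour, and that of CCT3 nearest to TSACC. The lower scores still exceeded the list's median of 6.16, and the median rank over the 11202 genes with an NRF1 summit was 17.5%. CCT6A ranked just above that median and CCT7 and CCT2 just below it, and CCT4 lay beyond the lower quartile of 31.1%. The members' median was 9.92% from the MANE ends, and 16.5% from the gene ends beside 17.6% over all genes. The nearest NRF1 summit lay upstream in 6 of 8 members, the others being CCT2 and CCT7, and in 70.7% of all genes with one.

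The 30 bases at the summits of the 4 genes with high NRF1 scores each hold TGCGC, which is part of the NRF1 motif on its other strand. These letters are not particular to the high scores. TGCGC also lies beside the highest NRF1 summit of CCT7 (score 45.0), in the stretch before its start shown above. The stretches shown for CCT4 (score 12.0) and CCT6A (score 61.2) also hold it or its reverse complement, farther from their summits. Equal windows at the genes with low scores were not examined. The share of all genes with TGCGC was not counted. Capitals mark TGCGC and its reverse complement GCGCA.
CCT5, chr5:10250228-10250257, plus strand: cgtcttgtgcTGCGCgTGCGCAagcttttg
CCT3, chr1:156338486-156338515, minus strand: tggcgccTGCGCcgacgttcgcgctgcacg
TCP1, chr6:159789836-159789865, minus strand: gcccactgcgtcTGCGCAacatcgtttgag
CCT8, chr21:29073833-29073862, minus strand: gctgtcTGCGCgtgcgtgagccagaaaccc
The whole motif GCGCANGCG, on either strand, lay within 50 bp of the summit at CCT5 and CCT3 and not at TCP1 or CCT8. Its share at the NRF1 summits of all genes was not counted. CCT5 carried it from -40 to -32 bp, and CCT3 from -220 to -212 and from -170 to -162 bp, on both sides of the summit at -197 bp. In the promoter window it was found in 2 of 8 members at the MANE end (CCT3 and CCT5; 11.0% of all genes) and in 0 of 8 at the gene end (9.03%).

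SP1 summits ranked high at 8 of 8 members. CCT3 had 1442 at -47 bp (1.14%), TCP1 1007 at -794 bp (1.93%), CCT5 776 at -274 bp (2.73%) and CCT6A 676 at -105 bp (3.24%). CCT8 had 530 at -93 bp (4.38%), CCT7 469 at -911 bp (4.99%), CCT2 328 at -48 bp (7.33%) and CCT4 301 at -44 bp (7.92%). The lowest of these ranks, at CCT4, still lay above the median of 10.7% over the 13292 genes with an SP1 summit. The members' median was 3.81%, and 4.68% from the gene ends, beside 11.0% over all genes. The highest SP1 summit of TCP1 lay nearest to the start of MRPL18, and TCP1 had a nearer one of 492 at -126 bp (4.72%). CCT7 also had a second summit, of 213 at -45 bp (10.6%). The GC box GGGCGGG lay in the window of 4 of 8 members at the MANE end (TCP1, CCT2, CCT3 and CCT8), where 47.1% of all genes hold it. At the gene end it lay in 5 of 8, beside 39.0% of all genes. Within 50 bp of the highest SP1 summit the GC box lay at 2 of 8 members from the MANE end (CCT2 and CCT3). From the gene end this held at 1 of 8 (CCT2). The same share at the SP1 summits of all genes was not counted.

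YY1 ranks of the members' highest summits had the narrowest range of the 4 lists, from 2.52% to 7.19%. For the summit nearest to the MANE end the range was 2.75% to 7.19%. For the summit nearest to the gene end it was 3.89% to 46.2% over 7 genes, wider than the 0.804% to 32.5% of NRF1. CCT3 had 640 at -544 bp (2.52%), TCP1 580 at -913 bp (2.74%), CCT5 533 at +97 bp (2.93%) and CCT6A 483 at +105 bp (3.18%). CCT7 had 396 at +3 bp (3.80%), CCT8 369 at +9 bp (4.05%), CCT2 205 at +174 bp (7.06%) and CCT4 201 at +88 bp (7.19%). CCT2 and CCT4 were the lowest of the 8 in this list, as they were in the SP1 and NRF1 lists. The members' median rank was 3.49%, beside 9.62% over the 13052 genes with a YY1 summit, and from the gene ends 3.80% beside 9.78%. The highest summits of CCT3 and TCP1 lay nearest to TSACC and MRPL18, and these genes had second YY1 summits near their own starts, of 575 at +101 bp (2.75%) and 386 at +21 bp (3.89%).

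**Figure D2:**
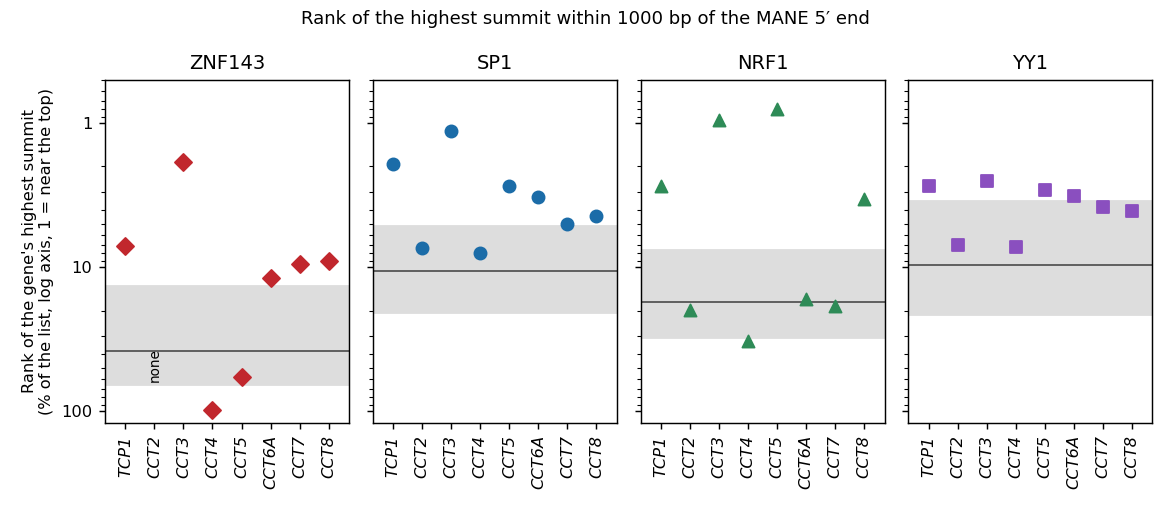
Rank percent of each CCT gene's highest summit within 1000 bp of the MANE end, by list, on a log axis with the top of the list upward; the grey band spans the quartiles and the line the median over all protein-coding genes with a summit. SP1 and YY1 points lie above the line in 8 of 8 genes, ZNF143 points run from 1.87% to 98.3%, and CCT2 has no ZNF143 point.

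CCT4 and CCT7 share chromosome 2, where scores of SP1 and YY1 at gene starts were lower than elsewhere. The median highest score was 141 for SP1 on chromosome 2, beside 210 over all chromosomes, and 99.3 beside 148 for YY1. For ZNF143 and NRF1 the chromosome 2 medians were 34.5 and 53.7, beside 22.6 and 51.8 over all. The part of this difference in the low SP1 and YY1 values of CCT4 was not tested.

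The side of the nearest summit was read from both ends and depended on which was used. From the MANE end, the nearest SP1 summit lay upstream in 8 of 8 members (76.3% of all genes with one), and the nearest YY1 summit downstream in 8 of 8 (60.7%). Both held in 8 of 8 members, and in 40.9% of the 12759 genes with both summits. The nearest ZNF143 summit lay upstream of it in 7 of 7 (67.6%). From the gene end, the SP1 summit lay upstream in 6 of 8 (60.3%), not at CCT5 (+77 bp) or CCT8 (+56 bp), and the YY1 summit downstream in 5 of 7 (64.2%), not at CCT6A (-132 bp) or CCT7 (-284 bp). Both held in 3 of 7 members there, beside 31.3% of all genes. The nearest ZNF143 summit lay upstream of the gene end in 3 of 6 (52.8%), and the nearest NRF1 summit in 5 of 7 (56.9%). These sides were chosen for description after the offsets had been seen. The YY1 summit nearest to the MANE end lay 48 bp downstream of the SP1 summit at CCT7, 102 bp at CCT8, 132 bp at CCT4, 147 bp at TCP1, 148 bp at CCT3, 210 bp at CCT6A, 222 bp at CCT2 and 371 bp at CCT5. The median signed difference, YY1 offset minus SP1 offset, was 147.5 bp for the members and 65.0 bp over all genes with both. Genes whose YY1 summit lies upstream of the SP1 summit enter with a negative value. The 65.0 bp is therefore not a median distance between the summits.

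**Figure D3:**
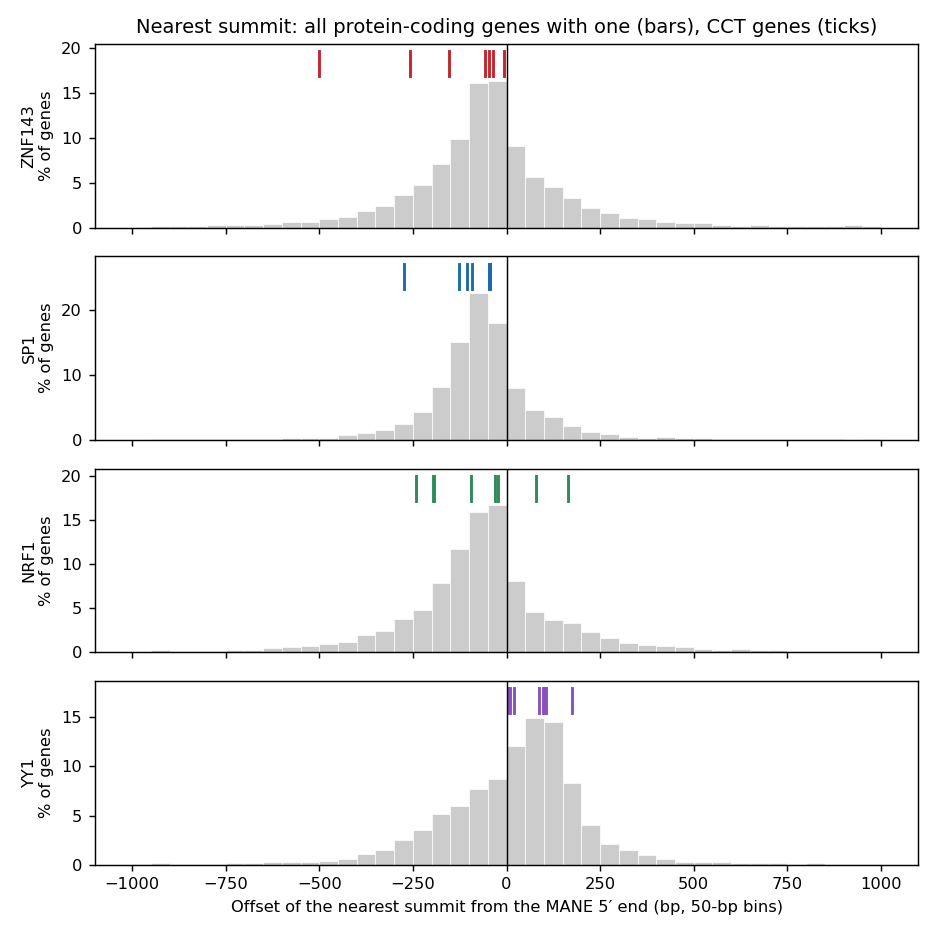
Offset of the nearest summit of each list from the MANE end in 50-bp bins, as a percent of the protein-coding genes with such a summit (bars), with the CCT genes as coloured ticks. SP1 ticks lie left of the MANE end and YY1 ticks right of it, and the most distant ZNF143 tick, at -501 bp, is CCT3.

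The start codon lay from +58 bp (CCT8) to +149 bp (CCT4). The downstream YY1 summits of CCT7, CCT8 and TCP1, at +3, +9 and +21 bp, lay nearer to the MANE end than to the start codon. Those of CCT2, CCT3, CCT4, CCT5 and CCT6A lay nearer to the start codon. Counted from the A of the start codon, the nearest YY1 summit lay at -7 bp in CCT3, +21 bp in CCT6A, +36 bp in CCT5, -49 bp in CCT8, -61 bp in CCT4, -68 bp in CCT7, +111 bp in CCT2 and -113 bp in TCP1. It lay within 50 bp in 4 of 8 members, and such a summit was present in 13.2% of the 19784 genes with an annotated start codon on the transcript used. Those genes include ones without any YY1 summit near their start, and the share among genes with one was not computed. The YY1 summits of CCT5 and CCT6A fell in a coding exon, that of CCT2 in an intron and those of the other 5 genes in the 5′ UTR. The start codon is shown for the genes where it begins ATGGCG, the last letters of the YY1 motif AANATGGCG, marked in capitals.
CCT5, chr5:10250327-10250356, plus strand: ccggttgttgcaccATGGCGtccatgggga
CCT6A, chr7:56051835-56051864, plus strand: ccgctggagcagctATGGCGgcggtgaaga
CCT8, chr21:29073575-29073604, minus strand: cctgcaggctggccATGGCGcttcacgttc
ATGGCG stood at the start codon of 3 of 8 members and of 8.76% of all such genes. The longer AANATGGCG lay across the start codon in 0 of 8 members (2.60% of genes) and in the promoter window of 0 of 8 (5.00% at the MANE end). Within 50 bp of the highest YY1 summit from the MANE end it lay at 0 of 8 members.

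The distance from the highest ZNF143 summit to the other lists was also measured. The share of members with all lists close by was near that of other genes. A summit of each of the other 3 lists lay within 100 bp of the highest ZNF143 summit in 2 of 7 members, CCT6A and CCT7, beside 27.0% of the 7410 genes with one. From the gene ends the count was 2 of 6, beside 26.6%. Within 250 bp the count from the gene ends was 6 of 6, but the share over all genes at this wider distance was not computed. At CCT6A the SP1, NRF1 and YY1 summits lay 48, 58 and 59 bp from it, and at CCT7 38, 87 and 10 bp. At CCT3 the nearest YY1 summit lay 43 bp away, but the nearest SP1 and NRF1 summits lay 454 and 304 bp away. TCP1 and CCT8 had SP1 and YY1 summits within 80 bp and NRF1 summits at 197 and 158 bp.

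Read from the gene ends, a majority of the CCT genes start back to back with a gene on the opposite strand. A divergent protein-coding gene began within 1000 bp upstream of the gene end in 5 of 8 members, beside 8.56% of all genes. The pairs were CCT5 with ATPSCKMT at 32 bp, CCT4 with COMMD1 at 53 bp, CCT6A with PSPH at 81 bp, TCP1 with MRPL18 at 109 bp and CCT7 with PRADC1 at 181 bp. Between MANE ends the count was 4 of 8 (9.49% of all genes): CCT3 with TSACC at 234 bp, CCT6A with PSPH at 321 bp, CCT5 with ATPSCKMT at 392 bp and TCP1 with MRPL18 at 865 bp. CCT4 with COMMD1 and CCT7 with PRADC1 (1069 bp) were not within 1000 bp of each other by MANE ends. MRPL18 encodes a protein of the mitochondrial ribosome, PSPH the enzyme of the last step of serine synthesis, and ATPSCKMT a lysine methyltransferase of the ATP synthase c subunit. TSACC encodes a testis co-chaperone, and COMMD1 a regulator of copper transport and NF-kB signalling. CCT8 had no gene start within 1000 bp, and CCT2 had the microRNA genes MIR3913-1 and MIR3913-2 at 603 and 703 bp from its gene end. A summit between such starts cannot be assigned to either gene from these lists.

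The pairs differed in how the summits divided between the starts. TCP1 had a second group nearest to MRPL18, with SP1 at -794 bp, ZNF143 at -839 bp (score 49.9, 27.6%) and YY1 at -913 bp. Its NRF1 summit at -243 bp also lay nearest to a start of MRPL18, while its ZNF143 summit of 3635 lay near its own start. CCT3 showed the reverse: ZNF143 at -501 bp and YY1 at -544 bp lay beyond the start of TSACC, NRF1 at -197 bp lay between the starts, and SP1 at -47 bp lay at CCT3. CCT5 had SP1, YY1 and ZNF143 summits together at -274, -271 and -258 bp, and NRF1 alone at -32 bp. CCT7 had its higher SP1 and NRF1 summits at -23 and -56 bp of the gene end, the side of PRADC1, and its higher ZNF143 and YY1 summits at the MANE end.

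Promoter motifs of other factors were counted in the same window. The heat shock element, GAANNTTC or TTCNNGAA, is the repeat recognised by the heat shock factor HSF1. It lay at the MANE end of 4 of 8 members, TCP1, CCT4, CCT5 and CCT6A, and of 11.0% of all genes. At the gene ends it lay in 1 of 8 (TCP1), beside 12.2%. CCT5 held a pair, from -125 to -118 and from -108 to -101 bp, and that of CCT6A spanned the MANE end from -4 bp. The CCT4 match lay downstream, from +38 to +45 bp, and the TCP1 match upstream, from -231 to -224 bp. Those of CCT5 and CCT6A are shown as examples, with the element and the letters inside it in capitals.
CCT5, chr5:10250152-10250181, plus strand: aagTTCCCGAAggccgccgaTTCCAGAAga
CCT6A, chr7:56051750-56051779, plus strand: cgggccgacttTTCCAGAAgacccggatag
The CCAAT box lay in 5 of 8 members (36.0% of all genes) at the MANE end and in 4 of 8 (35.9%) at the gene end. The ETS motif CCGGAAGT lay in 1 of 8, CCT2 (6.15% at the MANE end, 5.11% at the gene end). The TATA box TATAAA lay in 0 of 8 at either end, beside 9.73% and 10.8% of all genes. A match of letters is not a bound site, and no list of these other factors was used.

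Genes linked to CCT as partners, substrates, tubulin cofactors or relatives were taken as 36 named genes in 6 roles, all of them matched. Within 1000 bp of the MANE end, 34 had an SP1, 33 a YY1, 32 an NRF1 and 22 a ZNF143 summit, and 20 had all 4 lists. The shares over all genes, in the same order, were 66.6%, 65.4%, 56.1%, 37.1% and 34.8%. At the gene ends the counts were 30, 31, 25 and 19, and 18 for all 4, beside 63.5%, 62.3%, 53.1%, 35.3% and 32.9% of all genes. Among the 6 prefoldin genes, YY1 was present at 6, SP1 at 6, NRF1 at 4 and ZNF143 at 4 of the MANE ends. YY1 scores of the prefoldin genes at the MANE ends were 3377 at PFDN4 (0.456%), 2222 at PFDN2 (0.734%), 2063 at PFDN1 (0.821%), 1860 at PFDN5 (0.930%), 1481 at VBP1 (1.20%) and 720 at PFDN6 (2.28%). Each exceeded the highest YY1 score of a CCT gene at the MANE ends, 640 at CCT3. At the gene ends this did not hold for VBP1, with 21.9 (40.3%), below the lowest CCT score of 201 at CCT4. The other prefoldin genes had the same scores at both ends. This comparison was chosen after the values had been seen and was not tested. The 10 actin and tubulin genes had ZNF143 summits at 4, SP1 at 10, NRF1 at 10 and YY1 at 9 of the MANE ends. ZNF143 at 4 of 10 is near its share of 37.1% over all genes. The 4 cofactor genes, which encode phosducin-like proteins, had each list at 3. The 5 tubulin cofactor genes, which act after CCT in making tubulin dimers, had ZNF143 at 3 and each other list at 5. The 7 genes grouped as relatives of the subunits had ZNF143 at 5 and each other list at 6. They include HSPD1, the mitochondrial chaperonin gene, and HSPE1, the gene of its co-chaperonin. HSPD1 and HSPE1 had the same highest scores at their MANE ends (162 for ZNF143), so the same summits were counted for both genes. Of the 4 other substrates, such as the cell cycle regulator CDC20, ZNF143 was present at 3 and each other list at 4.

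The best ZNF143 rank among the related genes at their gene ends was that of PFDN6, a prefoldin subunit gene, with a score of 2256 (8.92%). At the MANE ends it was that of TXNDC9, with 8312 (3.23%) at -173 bp. At the gene ends no list had a summit at TXNDC9, PDCL2, CCT8L2, ACTG1 or MLST8, and at the MANE ends this held for PDCL2 and CCT8L2. CCT6B, the paralog of CCT6A, had summits of all 4 lists, with a ZNF143 score of 6.27 (71.6%) at its MANE end beside 1022 at CCT6A. The 31 bases at each of the 32 member summits that were checked occurred once on chromosomes 1 to 22, X and Y.

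**Figure D4:**
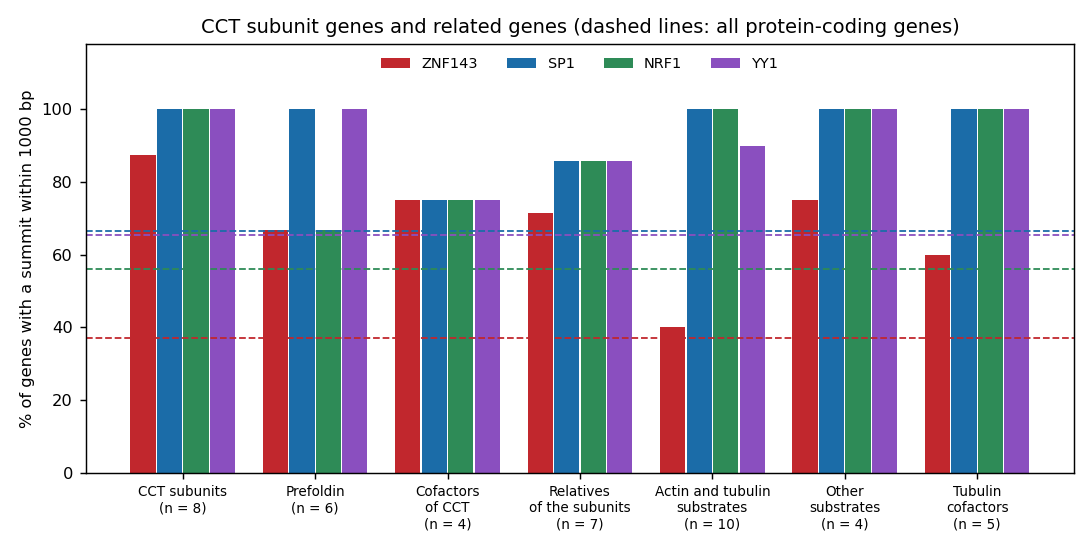
Percent of genes with a summit of each list within 1000 bp of the MANE end, for the CCT genes and 6 roles of related genes; dashed lines give the same percent over all protein-coding genes in the colour of the list. CCT genes stand at 8 of 8 for SP1, NRF1 and YY1, and ZNF143 runs from 4 of 10 actin and tubulin genes to 7 of 8 CCT genes.

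Genes most like the members were found from percentiles at the gene ends. A gene's percentile in a list is that of its highest score among all protein-coding genes, with 0 for no summit. The members' medians were 83.8 (ZNF143), 85.9 (SP1), 73.5 (NRF1) and 83.1 (YY1). The mean absolute difference from these over the 4 lists was smallest for ZC3H7B at 0.782 points, then HNRNPR at 1.79, KAT14 and PET117 at 1.91 each, and ISY1 at 2.11. KAT14 and PET117 had the same percentile in each list. Among the members it ran from 2.96 points at CCT7 and 4.03 at CCT6A to 25.7 at CCT2 and 72.4 at CCT3, whose gene end lacks 3 of the lists.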

How the data were processed

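ChIP-seq of 1 HEK293T clone was used as 4 lists of peak summits. Per the submitters' processing notes, cutadapt, Bowtie2, SAMtools 1.16.1, MACS3 and bedtools were used with hg38, with no order or settings given. Column 5, as deposited by the authors, is a significance on the −log10 scale, and whether of a p-value or of a q-value is not given in the sources used here. Every list starts at 2.00. Each antibody has 1 list with no value per sample, and the depth per sample is unknown. Mock samples were not analysed here.

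Summits on chromosomes 1 to 22 and X were matched with Python 3.11.15 and NumPy 2.4.6 to GENCODE 44 5′ ends within 1000 bp, ranked by column 5 with ties at their mean, and searched for motifs with no mismatch. The matching was checked on simulated summits. Shares over all protein-coding genes are given beside the counts for description only, and no test was run, since genes are not replicates. The gene end is the main definition, and the MANE end an alternative. The members and the lists of related genes were chosen with earlier results of these data known.

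Named genes were all members, each with its highest summit per list, the neighbours within 1000 bp, the related gene with the best ZNF143 rank, those without a summit, and the 5 most alike genes. Peak numbers were skipped within 100 kb of CCT6A (4 in the NRF1 list, 2 in the YY1 list), so summits may be absent there. Every column with values was assigned to a list.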

Additional observations from a re-analysis of the deposited data

How the results depend on the processing

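CCT genes with a summit were counted again with windows of 500 and 250 bp and with the top 50% of each list. Lists of equal length and the MANE end were also used. Each count stayed within 1.5 times of its gene-end value, for each list and for all 4 lists. At that limit, the ZNF143 count fell from 6 to 4 in the top 50%. The count for all 4 lists fell from 6 to 4 within 250 bp and in the top 50%. Shares over all genes were not computed for the narrower windows or shortened lists. From the MANE ends, the same settings were added after the data had been seen. They gave 7 or 8 members for SP1 and 8 for NRF1 and YY1. For ZNF143, and likewise for all 4 lists, the MANE count of 7 became 6 within 500 bp, 5 within 250 bp and 5 in the top 50% of each list, and was 7 for equal lengths. The median offset of the highest ZNF143 summit changed sign with the definition of the start, from 74.0 bp at the gene ends to -57.0 bp at the MANE ends. The median ZNF143 rank at the gene ends was 10.7% as reported, 22.3% within 500 bp, and 34.9% within 250 bp and for the nearest summit. The median YY1 rank was 3.80% for the highest and 7.06% for the nearest summit at the gene ends. The number of members whose highest ZNF143 summit had all 3 other lists nearby was 2 within 100 bp, 0 within 50 bp and 6 within 250 bp, and 1 where the summit nearest to the start was taken. Those distances cover different amounts of DNA by construction, and the share over all genes was computed for 100 bp only. The second form of the ZNF143 element was added after the data had been seen, and its count in the promoter window was 0, as for the first.

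No paired analysis was possible because the lists hold no value per sample. Leaving out replicates was not run, as each antibody has 1 list. Depth, which is unknown, sets how long each list is and how high its scores run.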
